A study of Mus musculus with 24 samples.

Results

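MiR-132, miR-212, and miR-384 are miRNAs of neurons whose hairpins each give a 5p arm and a 3p arm. The 6 arms mmu-miR-132-3p, mmu-miR-132-5p, mmu-miR-212-3p, mmu-miR-212-5p, mmu-miR-384-5p, and mmu-miR-384-3p were taken by name from the count tables as miRNAs regulated by neuronal activity, which is 6 of the 1531 mature mouse miRNAs listed. All 6 were counted in each of the 24 libraries, with a lowest count of 31, and all 6 averaged above the minimum of 10 CPM (counts scaled to a common library total) that a miRNA needed to enter a test. No member was therefore lost to the filter.

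The hairpins of miR-132 and miR-212 lie side by side and are transcribed together after neuronal activity or neurotrophin signaling through the transcription factor CREB. MiR-132 is known for promoting the growth of dendrites and the maturation of spines, and miR-212 shares its seed, the stretch at bases 2 to 8 through which a miRNA pairs with its target mRNAs. MiR-384-5p carries the seed of the miR-30 family and has been linked to the maintenance of long-term potentiation.

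The libraries came from cerebellum, striatum/thalamus, and cortex of the right hemisphere in 8 CD1 mouse pups of both sexes, of which 4 had hypoxic-ischemic brain injury (HIBI) and 4 were sham controls. On postnatal day 9, isoflurane anesthesia, local bupivacaine, and dissection of the neck were given to both groups, and only the HIBI pups had the right common carotid cauterized. After 2 h with the dam, the HIBI pups were kept at 8% oxygen for 30 min, while sham pups breathed normal air, also kept warm and without the dam. Tissue was taken 30 min later. HIBI pups were numbers 1, 4, 5, and 7 and sham pups were numbers 2, 3, 6, and 8, each pup gave 1 library per region, and no group had hypoxia alone. Each library held between 1254185 and 3406624 counts on mouse miRNAs. The CPM of a library were scaled by TMM over the 24 libraries, and all are levels of bulk tissue.

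The regional labels were checked against miRNAs with a known place of expression. MiR-10a-5p and miR-10b-5p, which lie in the Hox clusters and mark the hindbrain, summed to 1012 ± 557 CPM (SD, n = 4) in the sham cerebellum, 191 ± 62.0 CPM in the sham striatum/thalamus, and 69.5 ± 31.8 CPM in the sham cortex. The sums ran from 605 to 1835 CPM in the sham cerebellum, and how much adjoining brainstem that tissue held was not tested. Of the neuronal miRNAs miR-124-3p, miR-9-5p, and miR-128-3p, all 3 were present in each region, and their sum was between 78900.0 and 223731 CPM in every library.

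The mature sequences of all 6 members were found in RefSeq (GRCm38.p6). They are shown because the shared and unshared seeds decide which arms can be read as 1 pool of like-acting miRNAs. Bases 2 to 8, the seed, are in capitals.
mmu-miR-132-3p: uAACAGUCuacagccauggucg
mmu-miR-212-3p: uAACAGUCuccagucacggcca
mmu-miR-132-5p: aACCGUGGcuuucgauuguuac
mmu-miR-212-5p: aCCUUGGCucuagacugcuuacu
mmu-miR-384-5p: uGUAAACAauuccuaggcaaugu
mmu-miR-384-3p: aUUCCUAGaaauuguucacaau

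MiR-132-3p and miR-212-3p shared the seed AACAGUC, which no other of the 1679 mature mouse miRNAs in RefSeq had. Aligned from their first base, the pair differed at 5 of 22 bases, and all 5 lay outside the seed. From miR-132-3p to miR-212-3p, with positions counted from 1 at the 5′ end, these were A10C, C14U, U17C, U20C, and G22A. The 5p arms of the same hairpins had seeds found in no other entry, and so had miR-384-3p. The seed of miR-384-5p, GUAAACA, was also that of miR-30a-5p, miR-30c-5p, and miR-30e-5p.
mmu-miR-30a-5p: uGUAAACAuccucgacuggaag
mmu-miR-30c-5p: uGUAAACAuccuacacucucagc
mmu-miR-30e-5p: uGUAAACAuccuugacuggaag

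On GRCm38.p6, the hairpin of miR-212 lies at chr11:75173388-75173478 and that of miR-132 at chr11:75173682-75173747, both on the plus strand and 203 bases apart. GENCODE M21 places both hairpins in an intron of the noncoding gene 1700016P03Rik (chr11:75172560-75177633, plus strand). The hairpin of miR-384 lies at chrX:105344282-105344369 on the minus strand, where no other gene is annotated. Its nearest miRNA neighbor considered here, the hairpin of miR-325, lies 34712 bases away on the same strand.

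MiR-132-3p was the most abundant member in every region. Over the 8 pups it averaged 1370.1 ± 198 CPM in the cerebellum (SD, n = 8), 2522 ± 447 CPM in the striatum/thalamus, and 3148 ± 395 CPM in the cortex, where it ranked 45 among the 1531 mouse miRNAs. MiR-384-5p came next in each region, with 955 ± 373, 1279.8 ± 502, and 814 ± 138 CPM in the same order. The ranges of these 2 arms overlapped in the cerebellum and the striatum/thalamus, whereas in the cortex the lowest level of miR-132-3p, 2485 CPM, was above the highest of miR-384-5p, 1049.7 CPM.

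MiR-212-5p followed, with 178 ± 39.6 CPM in the cerebellum, 344 ± 46.0 CPM in the striatum/thalamus, and 363 ± 44.0 CPM in the cortex (SD, n = 8). The other 3 arms were rarer. MiR-384-3p averaged 101 ± 74.0, 81.3 ± 54.1, and 72.9 ± 18.1 CPM in the cerebellum, striatum/thalamus, and cortex. MiR-132-5p averaged 50.2 ± 8.60, 72.5 ± 7.60, and 122 ± 19.5 CPM, and miR-212-3p averaged 22.8 ± 5.61, 44.7 ± 10.8, and 63.7 ± 14.4 CPM. The rank of miR-384-3p and miR-132-5p was therefore exchanged between the cerebellum and the cortex, although their ranges overlapped in all 3 regions. The dominant arm was 3p for miR-132 and 5p for miR-212 and miR-384. The arms are 22 or 23 bases long. Counts of different arms were set side by side without a correction for length or for how readily each sequence enters a library. Such comparisons are therefore of counts, and not of numbers of molecules.

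The first question was how the members were distributed in the uninjured brain. MiR-132-3p in the sham pups 2, 3, 6, and 8 was at 1538, 945, 1401, and 1396 CPM in the cerebellum. The same pups had 2611, 2547, 1726, and 2012 CPM in the striatum/thalamus. Their cortex had 3060.0, 2920.4, 3819, and 3417 CPM. The regions did not overlap in these pups, and in every pup the order was cerebellum, then striatum/thalamus, then cortex.

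In the sham cortex, all 4 arms of the miR-132/212 locus were higher than in the cerebellum by edgeR's quasi-likelihood test. The log2 fold change was 1.29 for miR-132-3p (SE 0.188, adjusted p = 3.98e-05), 1.43 for miR-132-5p (SE 0.213, adjusted p = 4.72e-05), 1.34 for miR-212-3p (SE 0.287, adjusted p = 0.00110), and 1.14 for miR-212-5p (SE 0.213, adjusted p = 0.000333). Neither arm of miR-384 differed between the 2 regions, with log2 fold changes of 0.03 for miR-384-5p (95% interval -0.52 to 0.59) and 0.11 for miR-384-3p (-0.81 to 1.02). At a fold change above 1.5 and an adjusted p under 0.05, this put 4 of 6 members higher and 0 lower, beside 29.3% of all 423 miRNAs tested higher and 31.2% lower (124 and 132). A CPM minimum of 1 or none moved the median of these 423 miRNAs by 0.23 and 0.24, and the 4 arms stayed higher. Both settings also tested more miRNAs than the 423, and of that larger set 166 and 159 were higher and 108 and 98 lower. These counts are therefore not a new split of the 423. In bulk tissue, a different share of neurons and a different amount of the miRNA per neuron cannot be told apart.

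The sham striatum/thalamus likewise held more of the miR-132/212 arms than the cerebellum. The log2 fold change was 0.83 for miR-132-3p (SE 0.186, adjusted p = 0.00115), 0.80 for miR-132-5p (SE 0.212, adjusted p = 0.00388), 0.95 for miR-212-3p (SE 0.288, adjusted p = 0.00875), and 1.12 for miR-212-5p (SE 0.214, adjusted p = 0.000296) by the same edgeR test. MiR-384-5p was also higher, by 0.83 (SE 0.262, adjusted p = 0.0114), and miR-384-3p was at 0.50 (SE 0.432, adjusted p = 0.313). That made 5 of 6 members higher and 0 lower, beside 32.6% and 30.0% of the 423 miRNAs, and upper quartile normalization, which moved the median of all miRNAs by -0.16 and the split from 138 higher and 127 lower to 121 and 155, left the direction of all 6 unchanged. With 3 pups, miR-212-3p was no longer called at 0.82 without pup 2 (adjusted p = 0.0555) and 0.70 without pup 3 (adjusted p = 0.102), and neither was miR-384-5p at 0.64 without pup 3 (adjusted p = 0.102) and 0.68 without pup 6 (adjusted p = 0.0562).

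Cortex and striatum/thalamus were closer to each other. MiR-132-5p was higher in the sham cortex, with a log2 fold change of 0.63 (SE 0.208, adjusted p = 0.0259), and miR-384-5p was lower, at -0.80 (SE 0.262, adjusted p = 0.0253). MiR-132-3p was at 0.46 (SE 0.185, adjusted p = 0.0612), miR-212-3p at 0.38, miR-212-5p at 0.02, and miR-384-3p at -0.39, and none of these 4 was called. This was 1 member higher and 1 lower, beside 15.1% and 21.5% of the 423 miRNAs (64 and 91). With 3 pups, miR-132-5p was at 0.58 without pup 2 (adjusted p = 0.102) and 0.65 without pup 8 (adjusted p = 0.0875), so that the call was lost while the fold change stayed near that of 4 pups. MiR-384-5p kept an adjusted p under 0.05 in 5 of 13 alternatives, over which it ranged from 0.0177 to 0.208. Under TMM the median log2 fold change of all 423 miRNAs was -0.06 in this comparison, and upper quartile normalization moved that median up by 0.16 (80 higher, 64 lower), which brought miR-132-3p to 0.63 (adjusted p = 0.0158, with a range of 0.00645 to 0.612 over its 13 alternatives). A CPM minimum of 1, none, or 1 model of the 24 libraries moved that median by 0.24, 0.29, and 0.10 (93, 98, and 67 higher and 58, 52, and 67 lower). These settings tested other sets of miRNAs than the 423, so the counts higher and lower are not a new split of them.

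**Figure D1:**
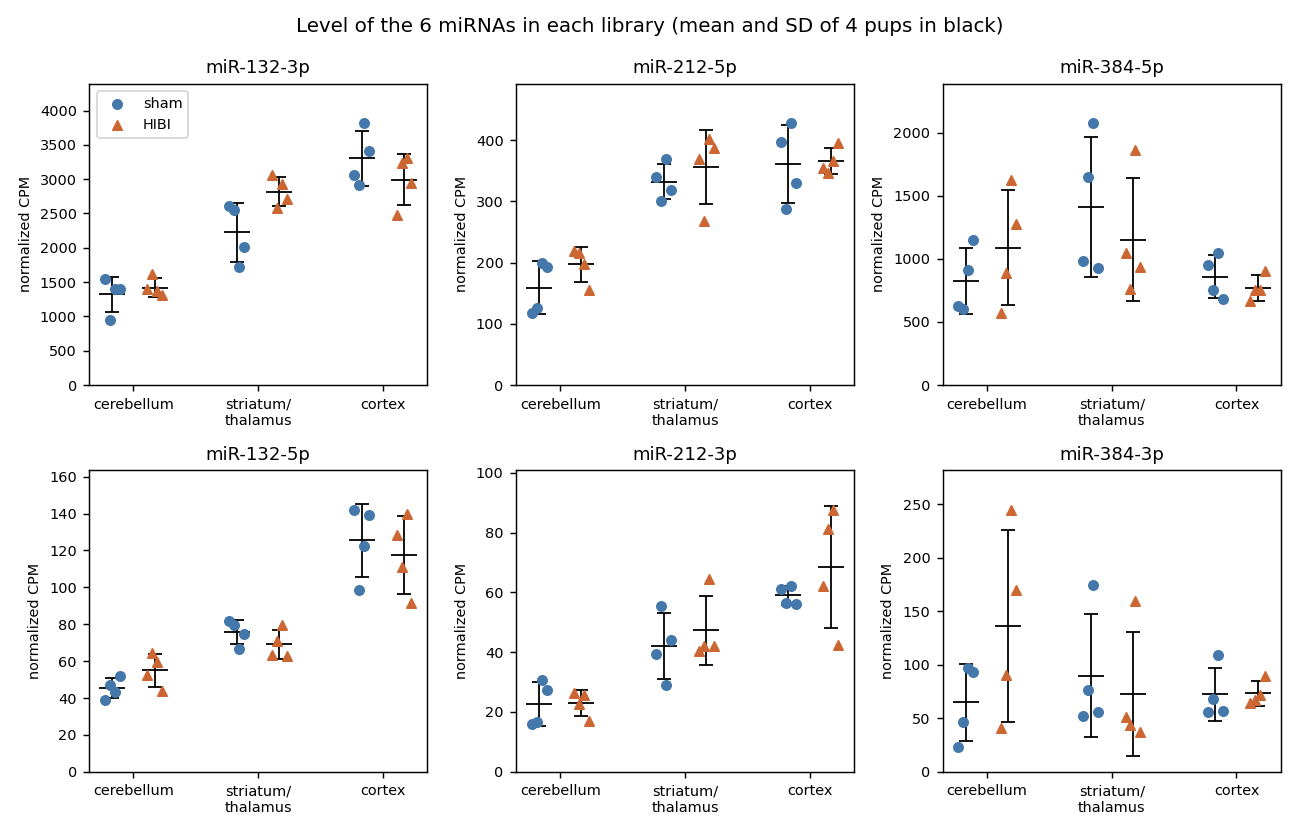
Normalized CPM (linear axes from 0) of each member in each of the 24 libraries, by region, with sham pups as circles, HIBI pups as triangles, and the mean and SD of 4 pups in black. All 4 miR-132/212 arms were lowest in the cerebellum, where miR-132-3p stayed between 945 and 1612 CPM against 2485 to 3819 CPM in the cortex, while HIBI and sham pups overlapped in every panel.

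The 4 HIBI pups are other animals, and the same regional comparisons were made in them. MiR-132-3p in HIBI pups 1, 4, 5, and 7 was at 1394, 1612, 1366, and 1308 CPM in the cerebellum. It was at 3064, 2584, 2925, and 2708 CPM in the striatum/thalamus, and at 2485, 3236, 3301, and 2949.7 CPM in the cortex. In these pups the cerebellum lay below both other regions, whereas the cortex and striatum/thalamus overlapped. The log2 fold change of cortex over cerebellum was 1.01 for miR-132-3p (adjusted p = 0.000388), 1.03 for miR-132-5p (adjusted p = 0.00402), 1.52 for miR-212-3p (adjusted p = 0.00197), and 0.83 for miR-212-5p (adjusted p = 0.00567) by edgeR, so that 4 of 6 members were higher, beside 12.1% of 446 miRNAs.

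Between striatum/thalamus and cerebellum, 3 of 6 members were higher in the HIBI pups, beside 22.2% of the 446 miRNAs. These were miR-132-3p (log2 fold change 0.89), miR-212-3p (0.96), and miR-212-5p (0.76), while miR-132-5p was at 0.24 (edgeR adjusted p = 0.424) and miR-384-5p at -0.02 (adjusted p = 0.967). Between cortex and striatum/thalamus, miR-132-5p was again the 1 member called higher, at 0.80 (adjusted p = 0.0241), beside 13.0% of miRNAs, and 0 of 6 members were called lower, beside 15.0%. MiR-384-5p was at -0.56 (adjusted p = 0.208) there. Of differences between sham and HIBI pups in these regional comparisons, only that of the 2 forebrain regions together against the cerebellum was tested (the interaction below).

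Each pup gave all 3 regions, so the regional levels were also compared within pups by a two-sided exact permutation test that flipped the sign of each pup's difference (smallest possible p 0.00781). All 4 miR-132/212 arms were higher in the cortex than in the cerebellum in 8 of 8 pups (exact p = 0.00781 each), which 22.6% of 380 miRNAs also were. MiR-132-3p, miR-132-5p, and miR-212-5p were higher in the striatum/thalamus than in the cerebellum in 8 of 8 pups (exact p = 0.00781 each), as were 27.1% of miRNAs, and miR-212-3p was higher in 7 of 8 (exact p = 0.0156). MiR-384-5p, called higher there in the sham pups, was higher in 5 of 8 pups, with a mean log2 difference of 0.42 (exact p = 0.156). MiR-132-5p and miR-212-3p were higher in the cortex than in the striatum/thalamus in 8 of 8 pups, as were 21.6% of miRNAs, with a mean log2 difference of 0.73 and 0.51 (exact p = 0.00781 each). MiR-384-5p was lower in the cortex than in the striatum/thalamus in all 8 pups, as were 18.2% of miRNAs, with a mean log2 difference of -0.58 (exact p = 0.00781). With the pup as a replicate block in the edgeR fit of the sham libraries, every call of a member was as without it, for example 1.30 for miR-132-3p (adjusted p = 8.61e-05) in cortex over cerebellum.

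The second question, and the main one of the study, was which miRNAs differed between HIBI and sham at 30 min. By the study's criteria of a fold change above 1.5 with an unadjusted p under 0.05, 0 of 6 members were differentially expressed in the cerebellum, striatum/thalamus, or cortex under edgeR's quasi-likelihood test. The same criteria called 7.83% of 434 miRNAs in the cerebellum (16 higher, 18 lower), 2.75% of 436 in the striatum/thalamus, and 3.41% of 410 in the cortex. At an adjusted p under 0.05, 0 of 6 members were called in each region, beside 0.0%, 0.0%, and 0.244% of the miRNAs tested. The 4 HIBI and 4 sham levels of a member overlapped for 6 of 6 members in each region, whereas 3.92%, 1.83%, and 3.41% of miRNAs had groups that did not overlap. DESeq2 gave 0 members at an adjusted p under 0.05 in each region, beside 0, 0, and 4 of the same 434, 436, and 410 miRNAs. At an unadjusted p under 0.05, without a minimum fold change, it gave 1, 0, and 0 members, beside 56, 20, and 18 miRNAs. In the cerebellum, scaling by library size alone moved the median of all miRNAs by 0.16 (41 higher, 10 lower) and upper quartile normalization by -0.13 (7 higher, 39 lower), and no member was called under either.

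For the miR-132/212 locus, the intervals bound how large an injury effect could have been. In the cortex the log2 fold change of HIBI over sham was -0.14 for miR-132-3p (95% interval -0.46 to 0.18), -0.10 for miR-132-5p (-0.54 to 0.34), 0.22 for miR-212-3p (-0.33 to 0.76), and 0.02 for miR-212-5p (-0.32 to 0.35). In the striatum/thalamus these values were 0.26 (-0.17 to 0.68), -0.22 (-0.69 to 0.26), 0.09 (-0.57 to 0.75), and 0.02 (-0.43 to 0.47) in the same order. A doubling in either forebrain region lay outside all 8 of these intervals. In the cerebellum the values were 0.13 (-0.28 to 0.55), 0.29 (-0.26 to 0.85), 0.04 (-0.69 to 0.77), and 0.33 (-0.21 to 0.88), and adjusted p-values of the locus were between 0.524 and 0.976 there.

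The nearest approach to separate groups within the locus was miR-132-3p in the striatum/thalamus. Its 4 HIBI levels ran from 2584 to 3064 CPM and its 4 sham levels from 1726 to 2611 CPM, so that the groups overlapped by 1 pup on each side, sham pup 2 and HIBI pup 4. The mean log2 difference was 0.36 by the two-sided exact permutation test (p = 0.0571, smallest possible p 0.0286), the lowest p among the 18 such tests of members against injury. The other arm of that hairpin, miR-132-5p, was at 63.2, 71.1, 79.6, and 62.9 CPM in the HIBI pups and 81.5, 79.8, 66.8, and 74.7 CPM in the sham pups of that region, with a mean lower by 0.13 on the log2 scale.

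MiR-212-5p, the major arm of its hairpin, was at 219, 216, 198, and 156 CPM in the HIBI cerebellum. In the sham cerebellum it was at 118, 126, 199, and 193 CPM. Sham pups 2 and 3 were the low ones, and sham pups 6 and 8 fell among the HIBI pups, for a mean log2 difference of 0.34. In the other 2 regions its HIBI and sham means differed by less than 1 SD of the sham group.

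In the cerebellum and striatum/thalamus, miR-384 varied more between pups than miR-132-3p. MiR-384-3p, its minor arm, was at 40.5, 90.8, 245, and 169.7 CPM in the cerebellum of HIBI pups 1, 4, 5, and 7. In the cerebellum of sham pups 2, 3, 6, and 8 it was at 23.0, 46.7, 97.4, and 92.9 CPM. HIBI pups 5 and 7 were above all sham pups, HIBI pups 1 and 4 were among them, and the highest level was 6.05 times the lowest within the HIBI group and 4.23 times within the sham group. Its log2 fold change of 1.09 (SE 0.538, 95% interval -0.09 to 2.26, adjusted p = 0.432) was the largest of any member in any region and did not pass the criteria, with an unadjusted edgeR p of 0.0664. In 7 of 16 alternatives, DESeq2, the edgeR exact test, and 1 model of all libraries among them, its unadjusted p was under 0.05, and its adjusted p ranged from 0.0854 to 0.831 over the 16.

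The major arm, miR-384-5p, was at 573, 886, 1620.3, and 1276 CPM in the HIBI cerebellum. The sham cerebellum had 624, 600.1, 911, and 1152 CPM. Again HIBI pups 5 and 7 were the highest and HIBI pup 1 the lowest of the 8, and the groups overlapped. The log2 fold change was 0.43 (SE 0.313, edgeR adjusted p = 0.508). Without pup 1 it was 0.63 and passed the unadjusted criteria, with an unadjusted edgeR p of 0.0455 and an adjusted p of 0.296.

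In the striatum/thalamus, miR-384-5p was at 1049, 759, 1859.9, and 935 CPM in HIBI pups and at 984, 1649, 2076, and 929 CPM in sham pups. MiR-384-3p was at 51.1, 43.3, 159, and 37.6 CPM in the HIBI pups and at 52.2, 76.9, 174, and 55.9 CPM in the sham pups. HIBI pup 5 stood well above the other HIBI pups for both arms, and sham pup 6 above the other sham pups. The same 2 pups had the highest sums of the endothelial markers (3126 CPM in sham pup 6 and 2166 CPM in HIBI pup 5, 974 to 1670.3 CPM in the others) and of the neuronal markers (152386 and 122693 CPM) in this region. For the neuronal markers HIBI pup 5 did not stand apart, since sham pup 3 had 122243 CPM. Other marker lists also peaked in these pups. Sham pup 6 was highest for the oligodendrocyte, skeletal muscle, and hindbrain sums (4180, 141, and 267 CPM), and HIBI pup 5 for the choroid plexus sum (4042 CPM). The erythrocyte sum was highest in HIBI pup 4 (1420 CPM) and the myeloid sum in HIBI pup 7 (30.8 CPM). The part of cell types in the miR-384 levels was not tested. The log2 fold changes were -0.37 for both miR-384-5p (SE 0.346) and miR-384-3p (SE 0.534), with an edgeR adjusted p of 0.980 each. Without pup 5 they were -0.72 and -1.13, past the unadjusted criteria, with an adjusted p of 0.389 each. Without pup 6, miR-384-3p was at 0.24.

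In the cortex the arms of miR-384 were tighter. MiR-384-5p was at 665, 754, 750.0, and 905 CPM in HIBI pups and at 952, 753, 1049.7, and 682 CPM in sham pups. MiR-384-3p was at 64.3, 67.0, 72.2, and 89.9 CPM in HIBI pups and at 55.8, 68.0, 109, and 56.9 CPM in sham pups. The groups overlapped for both arms, and the log2 fold changes were -0.16 (95% interval -0.52 to 0.20) and 0.02 (-0.50 to 0.55).

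Carotid occlusion spares the blood supply of the cerebellum, so the mean injury effect in cortex and striatum/thalamus minus that in the cerebellum was tested as an interaction over the 24 libraries with edgeR. At an adjusted p under 0.05 this called 0 of 6 members and 0 of 435 miRNAs (0.0%), of which 70 had an unadjusted p under 0.05, and DESeq2 also called 0. The difference was -1.21 for miR-384-3p (SE 0.634, adjusted p = 0.318), -0.63 for miR-384-5p (SE 0.383, adjusted p = 0.390), -0.39 for miR-132-5p (SE 0.241, adjusted p = 0.414), and between -0.25 and 0.18 for the other 3 arms. The 2 largest values were thus those of the miR-384 arms. Regions of the same pups are compared here, and with the pup as a replicate block miR-384-3p was at -1.12, with an unadjusted edgeR p of 0.0252 and an adjusted p of 0.171. Its unadjusted p was under 0.05 in 6 of 15 alternatives and its adjusted p in 0 of 15 (lowest 0.0859).

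Ratios of counts within a library do not depend on scaling, and 5 of them were examined: the arms of each hairpin, miR-132-3p to miR-212-3p, and miR-384-5p to the summed miR-30-5p arms, with 0.5 added to each count. MiR-132-3p exceeded miR-132-5p by a mean ratio of 27.8 ± 5.99 in the cerebellum (SD, n = 8), 35.03 ± 7.68 in striatum/thalamus, and 26.4 ± 4.78 in cortex. MiR-212-5p exceeded miR-212-3p by 7.82 ± 1.01, 8.06 ± 2.31, and 5.96 ± 1.65 in the same order. Over the 24 libraries the miR-132 ratio ran from 19.3 to 48.2 and the miR-212 ratio from 4.17 to 12.6, so that the major arm of each hairpin was the same in every library.

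Among the 15 tests of a ratio against injury, 2 had groups that did not overlap. By chance alone, 4 against 4 pups do not overlap with a probability of 0.0286 in each test. Ratios of other miRNAs were not examined for comparison. The ratio of miR-132-3p to miR-132-5p in the striatum/thalamus was 48.2, 36.2, 36.6, and 42.9 in HIBI pups 1, 4, 5, and 7 and 31.9, 31.8, 25.7, and 26.8 in sham pups 2, 3, 6, and 8. All 4 HIBI pups were above all 4 sham pups, with a mean log2 difference of 0.49 (two-sided exact permutation p = 0.0286, the smallest possible, and 0.214 after adjustment over the 15 ratios). The ratio of miR-212-5p to miR-212-3p in the cerebellum was 8.20, 9.40, 7.69, and 9.08 in HIBI pups and 7.27, 7.48, 6.47, and 6.99 in sham pups. HIBI pups were again all higher, with a mean log2 difference of 0.28 and the same exact permutation p of 0.0286, adjusted to 0.214. Neither ratio passed the adjustment, and in the other regions HIBI and sham pups overlapped for both. With any 1 pup left out, which leaves 3 against 4 pups and fewer possible p-values, the miR-212 difference stayed between 0.24 and 0.33 with an exact permutation p of 0.0286 or 0.0571. Without pup 7 the ratio of miR-132-3p to miR-212-3p in the cortex reached -0.51 with an exact permutation p of 0.0286.

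The ratio of miR-384-5p to miR-384-3p differed between cortex and striatum/thalamus. Its median was 11.1 in the cerebellum (lowest 6.61, highest 26.9), 18.1 in striatum/thalamus (11.7 to 24.7), and 10.7 in cortex (9.61 to 17.0). It was lower in the cortex than in the striatum/thalamus in all 8 pups, with a mean log2 difference of -0.62 (exact permutation p = 0.00781, 0.0391 after adjustment over 15 ratios). Compared with the cerebellum, it was higher in the striatum/thalamus in 7 of 8 pups, by 0.61 (exact permutation p = 0.0313, adjusted 0.0781). The 2 arms of this hairpin were therefore not in a fixed proportion between these 2 regions. For miR-212-5p to miR-212-3p, no comparison of regions passed the adjustment, the nearest being cortex over striatum/thalamus (-0.43, exact permutation p = 0.0156, adjusted 0.0586).

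**Figure D2:**
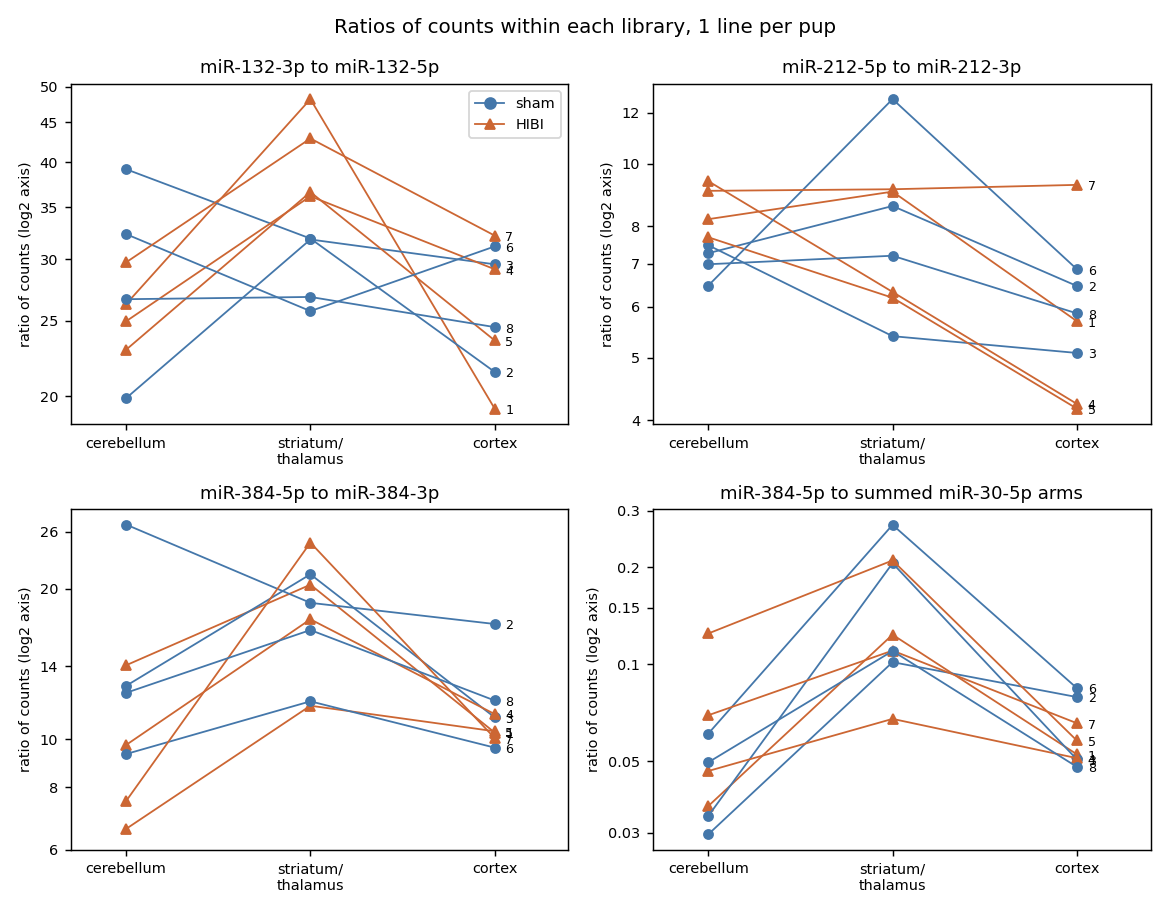
Ratio of counts within each library (log2 axes) for 4 pairs of miRNAs, with 1 line per pup through cerebellum, striatum/thalamus, and cortex, sham pups as circles, HIBI pups as triangles, and pup numbers at the right. The line of each of the 8 pups fell from striatum/thalamus to cortex for both ratios of miR-384-5p. For miR-132-3p to miR-132-5p in the striatum/thalamus, the 4 HIBI pups lay above the 4 sham pups (36.2 to 48.2 against 25.7 to 31.9). This difference did not pass the adjustment over 15 ratios (exact permutation p = 0.0286, adjusted 0.214).

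Within the pool of miRNAs with the seed AACAGUC, miR-132-3p made up 98.35 ± 0.375% of counts in the cerebellum (SD, n = 8), 98.2 ± 0.342% in striatum/thalamus, and 98.0 ± 0.446% in cortex. MiR-212-3p was the remainder, at most 2.59% in any library. With all 8 pups, the ratio of these 2 arms did not differ between regions or with injury beyond the spread between pups (lowest exact permutation p = 0.164 of 6 tests, adjusted 0.273). Without pup 7, its difference with HIBI in the cortex was -0.51, as given above (exact permutation p = 0.0286).

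The seed of miR-384-5p is shared with the miR-30 family, of which the list used here held 5 arms, miR-30a-5p to miR-30e-5p, 3 of them matched to a RefSeq sequence. MiR-384-5p made up 5.28 ± 2.66% of the counts of this pool in the cerebellum (SD, n = 8), 12.8 ± 5.16% in striatum/thalamus, and 5.76 ± 1.22% in cortex. MiR-30d-5p was the largest contributor throughout, with 56.8 ± 6.38%, 53.3 ± 6.01%, and 61.5 ± 3.23%. All 5 miR-30-5p arms were lower in the sham striatum/thalamus than in the sham cerebellum, beside 30.0% of all 423 miRNAs, with a median log2 fold change of -1.14 beside -0.03. In the cortex 4 of 5 were higher than in the striatum/thalamus, beside 15.1% (median 0.87 beside -0.06). In the sham cortex 1 of 5, miR-30c-5p, was lower than in the cerebellum, beside 31.2% (-0.78, edgeR adjusted p = 0.000279). MiR-384-5p itself was higher in the striatum/thalamus than in the cerebellum in 5 of 8 pups. Its ratio to the 5 summed arms was higher in the striatum/thalamus than in the cerebellum in 8 of 8 pups (mean log2 difference 1.43) and lower in the cortex than in the striatum/thalamus in 8 of 8 (-1.19), with an exact permutation p of 0.00781 and an adjusted p of 0.0391 each. None of the 5 arms was differentially expressed with HIBI in any region, with medians of 0.15, 0.01, and 0.00 in cerebellum, striatum/thalamus, and cortex beside 0.11, -0.03, and -0.02 over all miRNAs tested.

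For comparison, 26 other miRNAs known for regulation by, or of, neuronal activity were listed from textbook knowledge, of which 25 were in the tables (miR-219a-5p is not analysed here) and 22 passed the CPM minimum. With HIBI, 4 of 22 were called in the cerebellum and 0 of 22 in each of the other regions, beside 7.83%, 2.75%, and 3.41% of all miRNAs tested in cerebellum, striatum/thalamus, and cortex. Those called higher were miR-137-3p (log2 fold change 1.77), miR-135a-5p (1.11), and miR-410-3p (0.61), and miR-183-5p, best known from sensory neurons, was lower (-0.66), all with an edgeR adjusted p of 0.432. The list's median log2 fold change was 0.17, -0.09, and -0.08 in cerebellum, striatum/thalamus, and cortex, beside 0.11, -0.03, and -0.02 over all miRNAs. In the interaction 0 of the 22 were called, with a median of -0.34 beside -0.04.

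By region, this list split in both directions, as all miRNAs did. In the sham cortex over cerebellum, 7 of 22 were higher and 4 lower, beside 29.3% and 31.2% of all miRNAs, with miR-137-3p at 3.77 and miR-182-5p at -3.93 as the ends of the range (median 0.14 beside -0.13 over all miRNAs). In striatum/thalamus over cerebellum, 6 were higher and 8 lower, beside 32.6% and 30.0% (median -0.09 beside -0.03), and in cortex over striatum/thalamus 7 were higher and 4 lower, beside 15.1% and 21.5% (median 0.19 beside -0.06). Those lower in the cortex than in the striatum/thalamus, as miR-384-5p was, were miR-134-5p (-0.90), miR-329-3p (-1.03), miR-485-5p (-1.12), and miR-135a-5p (-1.30).

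As a description of how the members varied, log2(CPM + 1) was correlated over the 24 libraries, which share animals and the same 3 regions. The 4 miR-132/212 arms had Pearson's r between 0.77 and 0.89 with one another. After the mean of each of the 6 groups was taken out, r fell to between 0.19 and 0.59. These means hold region and injury together, and their parts were not separated. The miR-384 arms had r of 0.76 over the 24 libraries and 0.91 without the group means, the highest of the 15 pairs of members. Between an arm of miR-384 and an arm of miR-132/212, r over the 24 libraries lay between -0.12 and 0.25. Without the group means it lay between -0.11 and 0.40, with miR-212-5p at 0.40 and 0.38 to miR-384-5p and miR-384-3p, above some pairs within the miR-132/212 locus.

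Among the 380 miRNAs above 10 CPM in every region, those most like miR-132-3p were miR-139-3p, miR-139-5p, and miR-7a-2-3p (r = 0.92, 0.92, and 0.91). MiR-139-5p was also among the 3 most like miR-132-5p (r = 0.90, with miR-29a-3p and miR-381-3p) and miR-212-3p (r = 0.91, with miR-221-3p and miR-222-3p). MiR-212-5p was most like miR-337-5p (r = 0.96), miR-541-5p, and miR-137-5p. For miR-384-5p the list was miR-598-3p (r = 0.77), miR-384-3p, and miR-135a-5p, and for miR-384-3p it was miR-335-5p (r = 0.83), miR-146a-5p, and miR-384-5p. All miRNAs most like the 4 miR-132/212 arms had their lowest mean in the cerebellum, as miR-139-5p did with 250.2 CPM against 846 CPM in the striatum/thalamus and 1989.9 CPM in the cortex. They were chosen by correlation with arms that were themselves lowest there, so this followed largely from the choice.

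Markers of cell types also moved with region, and their part in the regional differences of the members was not tested. The 3 neuronal markers are also on the list of other activity-regulated miRNAs above, so they are counted in both. In sham pups 2, 3, 6, and 8 the 3 neuronal miRNAs summed to 147147, 120110, 145816, and 190881 CPM in the cerebellum, to 92868.5, 122243, 152386, and 88530.1 CPM in the striatum/thalamus, and to 198355, 195651, 198893, and 223731 CPM in the cortex. The most abundant of the 3 was miR-9-5p in the cerebellum, miR-124-3p in the striatum/thalamus, and miR-128-3p in the cortex. In cortex over cerebellum 1 of these 3, miR-128-3p, was called higher (1.39), while miR-124-3p was at 0.17 and miR-9-5p at -0.22, not called. In striatum/thalamus over cerebellum 1, miR-9-5p, was called lower (-0.97), opposite to the miR-132/212 arms. MiR-124-3p went in the direction of these arms there, at 0.36 (edgeR adjusted p = 0.055), and miR-128-3p was at -0.08, neither of them called. In cortex over striatum/thalamus 2 of the 3 were called higher, miR-9-5p (0.75) and miR-128-3p (1.47), as miR-132-5p was. MiR-124-3p was at -0.19 there, not called. Both oligodendrocyte miRNAs, led by miR-219a-2-3p, were lower in cortex and striatum/thalamus than in cerebellum, with medians of 6314 CPM in the cerebellum, 2669 CPM in the striatum/thalamus, and 1612 CPM in the cortex over 8 pups. Of the skeletal muscle list, 2 of the 2 tested were lower in the cortex than in the cerebellum and 1, miR-206-3p, in the striatum/thalamus. MiR-204-5p of the choroid plexus list was lower in the cortex (-1.27) and the striatum/thalamus (-1.33) than in the cerebellum, and miR-486a-5p of the erythrocyte list was lower in the cortex (-1.27). Of the myeloid and endothelial lists, only miR-223-3p and miR-126a-3p were tested, and neither was called between forebrain regions and cerebellum. MiR-126a-3p came near in striatum/thalamus over cerebellum, at -0.60 (edgeR adjusted p = 0.0504). In cortex over striatum/thalamus, miR-126a-3p was higher (0.69), and miR-219a-2-3p (-1.07), miR-486a-5p (-0.90), and miR-206-3p (-2.22) were lower.

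With HIBI, 2 markers were called, both in the cerebellum: miR-486a-5p of the erythrocyte list was lower (-0.86) and miR-1a-3p of the skeletal muscle list higher (1.05), each with an edgeR adjusted p of 0.432. MiR-206-3p, the most abundant of the muscle list in the cerebellum, went the other way (-0.53, adjusted p = 0.432), and the list summed to a mean of 519 CPM in sham and 481 CPM in HIBI pups. The erythrocyte list summed to between 735 and 1325 CPM in the sham cerebellum and between 579 and 787 CPM in the HIBI cerebellum. Summed over the 4 pups of a group, at most 1 miRNA of any marker list was at 0 counts, in the myeloid and erythrocyte lists. No neuronal marker was called with HIBI in any region. All 3 were lower in the striatum/thalamus, miR-124-3p at -0.40 with an unadjusted edgeR p of 0.0307 (adjusted p = 0.980), miR-9-5p at -0.34, and miR-128-3p at -0.35, where miR-132-3p was at 0.26.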

How the data were processed

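Upstream, the authors used bowtie2 to align reads to mature mouse miRNAs, and the deposited tables give raw counts by region and library. Neither versions nor the handling of reads with more than 1 matching miRNA are stated in the sources used, so counts of near-identical arms, as in the miR-30 family, are uncertain. The authors' log2 fold changes, p-values, and false discovery rates are also in the tables and were not used. Library sizes and tests left out the 20 castor bean entries (0.000156% of counts).

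Tests ran in R 4.3.3 with edgeR 4.0.16 (quasi-likelihood, TMM, an average above 10 CPM over the libraries of a fit, Benjamini-Hochberg adjustment over all miRNAs tested), limma 3.58.1, and DESeq2 1.42.0 as an alternative. HIBI was set against sham in the 8 libraries of a region, regions were compared in the 12 sham libraries, and the interaction used all 24. Permutation tests were exact and two-sided, on log2(CPM + 1) or log2 ratios, in Python 3.11.15 with numpy 2.4.6 and pandas 2.3.3. Alternatives were other scalings, other CPM minima, DESeq2, the edgeR exact test, the pup as a replicate block, 1 model of all libraries, the HIBI libraries for regions, other pseudocounts, and leaving out each pup. The scripts were first run on simulated data.

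The miRNAs named are the 6 members, those of the lists (other activity-regulated miRNAs, miR-30-5p arms, cell type markers) that were called or most abundant, and the 3 most correlated with each member. MiR-325 was added after the design was set, and the miR-212 ratio is given as 5p to 3p, the inverse of the planned direction. The members and lists were chosen with earlier results of these data known. Since 1 animal gave all 3 regions, libraries are paired by pup. Over 380 miRNAs, the median correlation between regions of a pup's departures from group means was 0.32 for cortex and cerebellum, 0.18 for striatum/thalamus and cerebellum, and 0.25 for cortex and striatum/thalamus, and it exceeded 0.1 in 7, 6, and 7 of 8 pups. Even the 2 closest libraries of a group differed beyond sampling noise (chi-square over degrees of freedom 26.5).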

Additional observations from a re-analysis of the deposited data

Results flagged for a closer look

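In groups of 4 pups, a pup was set apart where its gap to the nearest other pup was large for the range of the group (Dixon's test at p under 0.05). This was so in 2 of 36 groups of member levels and in 1 of 30 groups of ratios, and chance alone gives about 1 in 20 groups.

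HIBI pup 5 was the high one in both member groups, which were in the striatum/thalamus. MiR-212-3p was at 64.6 CPM there, while HIBI pups 1, 4, and 7 lay between 40.5 and 42.2 CPM. MiR-384-3p was at 159 CPM, while the other HIBI pups lay between 37.6 and 51.1 CPM. In the cortex of HIBI pup 7, the ratio of miR-132-3p to miR-212-3p was 69.1, and it was between 37.6 and 39.9 in the other HIBI pups.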

How the results depend on the processing

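Of 288 alternatives to the tests of members against HIBI, 260 kept the result, and of 234 for regions, 207 did. The cause of the changes was not tested. Values are log2 fold changes or counts of miRNAs called. The pup as a replicate block, fitted for the sham regional comparisons and the interaction, changed no call of a member.

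MiRNAs called with HIBI in the cerebellum, 34 in the text, numbered 61 with a minimum of 1 CPM, 106 with none, and 18 to 82 with 1 pup left out. In the striatum/thalamus, 12 became 19 (minimum of 1 CPM, DESeq2, and 1 model of 24 libraries), 54 with no minimum, and 5 to 38 with a pup left out. In the cortex, 14 became 41 with a minimum of 1 CPM and 86 with none. With no minimum the interaction called 10. A lower minimum or none also put more miRNAs to the test, so these counts are not out of the same number tested.

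For HIBI in the cerebellum, miR-384-3p (1.09) passed the unadjusted criteria at 1.11 with a minimum of 1 CPM, 1.06 with none, 1.08 with DESeq2 and the edgeR exact test, and 1.07 with 1 model of 24 libraries, and it ran from 0.64 to 1.38 with a pup left out. MiR-212-3p turned to -0.079 with upper quartile normalization and -0.0028 with no minimum. Leaving out 1 pup gave -0.12 to 0.20 for it, -0.0079 to 0.19 for miR-132-3p, and 0.18 to 0.63 for miR-384-5p. In the striatum/thalamus the same ranges were -0.12 to 0.26 for miR-212-3p, -0.0547 to 0.22 for miR-212-5p, -0.72 to -0.0433 for miR-384-5p, and -1.13 to 0.24 for miR-384-3p. In the cortex they were -0.19 to 0.0171 for miR-132-5p, -0.048 to 0.12 for miR-212-5p, and -0.0731 to 0.29 for miR-384-3p.

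Between regions, the HIBI libraries gave 132 miRNAs called in cortex over cerebellum, with miR-384-5p at -0.58 and miR-384-3p at -0.98. In striatum/thalamus over cerebellum they gave 0.24 for miR-132-5p, -0.0185 for miR-384-5p, and -1.0005 for miR-384-3p, and in cortex over striatum/thalamus -0.56 for miR-384-5p and 0.0214 for miR-384-3p. In striatum/thalamus over cerebellum, miR-132-5p lost its call at 0.75 with no minimum. In cortex over striatum/thalamus, upper quartile normalization, a minimum of 1 CPM, and none gave 0.63, 0.71, and 0.75 for miR-132-3p, now called, and -0.65, -0.56, and -0.54 for miR-384-5p, not called, as at -0.71 in 1 model of 24 libraries. With a pup left out, cortex over cerebellum ran from -0.18 to 0.41 for miR-384-5p and -0.10 to 0.50 for miR-384-3p. Striatum/thalamus over cerebellum ran from 0.70 to 1.30 for miR-212-3p and 0.64 to 1.22 for miR-384-5p. Cortex over striatum/thalamus ran from 0.58 to 0.76 for miR-132-5p, -0.0297 to 0.13 for miR-212-5p, and -1.01 to -0.53 for miR-384-5p, with 95 to 153 miRNAs called (155 in the text).

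The interaction of miR-132-3p was 0.0459 with upper quartile normalization and -0.0728 to 0.12 with a pup left out. That of miR-212-3p was -0.0031 with scaling by library size and -0.0481 to 0.34 with a pup left out.

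Some log2 ratios near 0 changed sign with a pup left out. With HIBI, miR-132-3p to miR-132-5p ran from -0.32 to 0.0051 in the cerebellum and -0.16 to 0.0884 in the cortex, and miR-212-5p to miR-212-3p from -0.29 to 0.12 in the striatum/thalamus and -0.37 to 0.0107 in the cortex. MiR-384-5p to miR-384-3p ran from -0.0712 to 0.30 in the striatum/thalamus, and miR-132-3p to miR-212-3p from -0.0549 to 0.30 in the cerebellum. In cortex over cerebellum, the miR-132 arms ran from -0.16 to 0.0471 and the miR-384 arms from -0.10 to 0.0866 (0.0053 with 5 added to counts), and in striatum/thalamus over cerebellum the miR-212 arms from -0.13 to 0.0882.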

Other observations

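The 4 pups with the highest miR-384-3p in the cerebellum were HIBI pups 5 and 7 (245 and 169.7 CPM) and sham pups 6 and 8 (97.4 and 92.9 CPM). The same 4 pups were highest for miR-384-5p in the cerebellum, with 1620.3, 1276, 911, and 1152 CPM. They were also highest for the summed endothelial markers there (4830 CPM in pup 5, 4313 CPM in pup 7, 3398 CPM in pup 6, and 4040.2 CPM in pup 8, 2112 to 3134 CPM in the others), and the part of these cells was not tested. None of the other marker lists had these 4 pups as its highest 4, and the oligodendrocyte sum was lowest in HIBI pup 7 (4792 CPM). In the striatum/thalamus the highest for both arms were sham pup 6 and HIBI pup 5, and in the cortex sham pup 6 was the highest for both. The endothelial sum did not follow in the cortex. It was 2991 CPM in sham pup 6, below sham pups 2 and 8 (3738 and 3349 CPM) and HIBI pups 5 and 7 (3542 and 3518 CPM). The labels name no batch that the pup numbers follow.

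The hairpin of miR-325 lies 34712 bases from that of miR-384. Its 3p arm was at 295 ± 50.5 CPM in the cerebellum (SD, n = 8), 267 ± 21.8 CPM in the striatum/thalamus, and 211 ± 47.0 CPM in the cortex, and its highest level in the cerebellum was that of HIBI pup 4, at 389 CPM. Its 5p arm was at 78.2 ± 9.66, 63.1 ± 21.7, and 49.0 ± 9.60 CPM in the same order. In the striatum/thalamus, the 5p arm was highest in sham pup 6 (105.02 CPM) and HIBI pup 5 (72.4 CPM), the same 2 pups as for both miR-384 arms. In the cerebellum it was highest in HIBI pup 1 (93.9 CPM) and lowest in sham pup 6 (62.1 CPM), and in the cortex it was highest in sham pup 2 (65.2 CPM).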
